A study of Homo sapiens with 8 samples.

Results

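Cathepsins and cystatins were examined in CFPAC-1, an established line of human pancreatic ductal adenocarcinoma cells, with and without forced expression of the alpha-2A adrenergic receptor. The 10 genes, of 58870 in the deposited table, were taken by symbol: the cysteine cathepsin genes CTSB, CTSH, CTSL, CTSS, CTSV and CTSZ, the aspartic cathepsin gene CTSD, and the cystatin genes CST3, CST6 and CSTB. Bulk RNA sequencing covered 4 libraries of cells with an empty vector and 4 of cells with an ADRA2A transgene, and all 8 came from CFPAC-1 cells grown for 72 h in IMDM with 10% serum and antibiotics, without any drug. The labels name neither the promoter of the transgene nor whether the cells of a group were a pool or a clone, and they do not say whether replicates were separate cultures, so p-values measure only the spread between these libraries, which may be technical. The study's title links ADRA2A with the basal-like/squamous subtype in pancreatic tumours, and the comparison asks how its overexpression alters RNA levels in these cells.

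Cathepsins are proteases that are made as inactive precursors, carried to the lysosome by mannose 6-phosphate receptors and activated there by acid and by other proteases. Tumour cells also secrete them, and outside the cell they cut matrix, adhesion proteins and other proteases. Cystatins are tight-binding inhibitors of the papain-like cysteine cathepsins: cystatin C and cystatin E/M are secreted, whereas cystatin B acts in the cytosol, and none of them inhibits the aspartic protease cathepsin D.

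Libraries held between 14427035 and 17528915 counts. ADRA2A had 0 counts in all 4 empty-vector libraries and 112, 142, 154 and 172 counts in the ADRA2A libraries. Of 7 ductal and epithelial markers, KRT7, KRT8, KRT18, KRT19, EPCAM and CDH1 were abundant, while CFTR had between 4 and 20 counts per library. These markers also moved between the groups: of the 6 tested, KRT19 and EPCAM were higher and KRT7, KRT18 and CDH1 lower. These 5 genes had an edgeR adjusted p under 0.05, as did 42.7% of all tested genes. EPCAM and KRT18 changed little, with log2 fold changes of 0.11 ± 0.03 and -0.09 ± 0.03 (SE). KRT7 fell from 781.4 ± 28.3 to 578.5 ± 17.6 CPM (counts scaled to a common library size) and CDH1 from 412.3 ± 11.9 to 327.0 ± 10.9 CPM (SD, n = 4 per group; edgeR adjusted p = 2.74e-09 and 1.68e-07). The part of these shifts in the results on cathepsins and cystatins was not tested. The leukocyte genes CD163 and CD3E were at 0 in every library, PTPRC, which encodes the pan-leukocyte protein CD45, had at most 4 counts, and CSF1R had at most 3. CD14 passed the filter on low counts, with 18 to 37 counts and a log2 change of 0.30 ± 0.25 (SE; edgeR adjusted p = 0.353). Of the 3 endothelial markers only PECAM1 was tested; it rose (log2 fold change 1.66 ± 0.28, SE; edgeR adjusted p = 8.12e-05) at no more than 45 counts in a library, while CDH5 had at most 1 count and VWF at most 4. VWF, which was not tested, went the other way, from 0.235 ± 0.0431 to 0.0323 ± 0.0373 CPM without overlap of the groups (SD, n = 4 per group). In bulk RNA, fewer cells that express a gene and less RNA per cell cannot be told apart.

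In the ADRA2A cells 5 of the 6 cysteine cathepsin genes rose, the other one fell, CTSD did not differ detectably, and of the cystatin genes CST6 and CSTB fell while CST3 rose slightly. CTSS, at 2.41-fold, and CST6, at 0.182-fold of the empty-vector level, had the largest changes, and the other called genes moved by less than 1.5-fold. All 10 genes passed the filter on low counts. With edgeR's quasi-likelihood test, 9 of the 10 passed a Benjamini-Hochberg threshold of 0.05, 6 higher and 3 lower, where 42.7% of all 14785 tested genes were called. For 9 of the 10 no library of one group reached into the range of the other, against 39.2% of all tested genes. CTSS and CST6 also passed with a log2 change of at least 1 in size, which 4.66% of all tested genes did. The median log2 fold change was 0.17 over the 10 genes and 0.00 over all genes tested, and the median absolute value was 0.33 against 0.18. CPM values are scaled with TMM factors, edgeR's trimmed mean of M values, and fold changes are ADRA2A over empty vector from the fit over all genes.

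**Figure D1:**
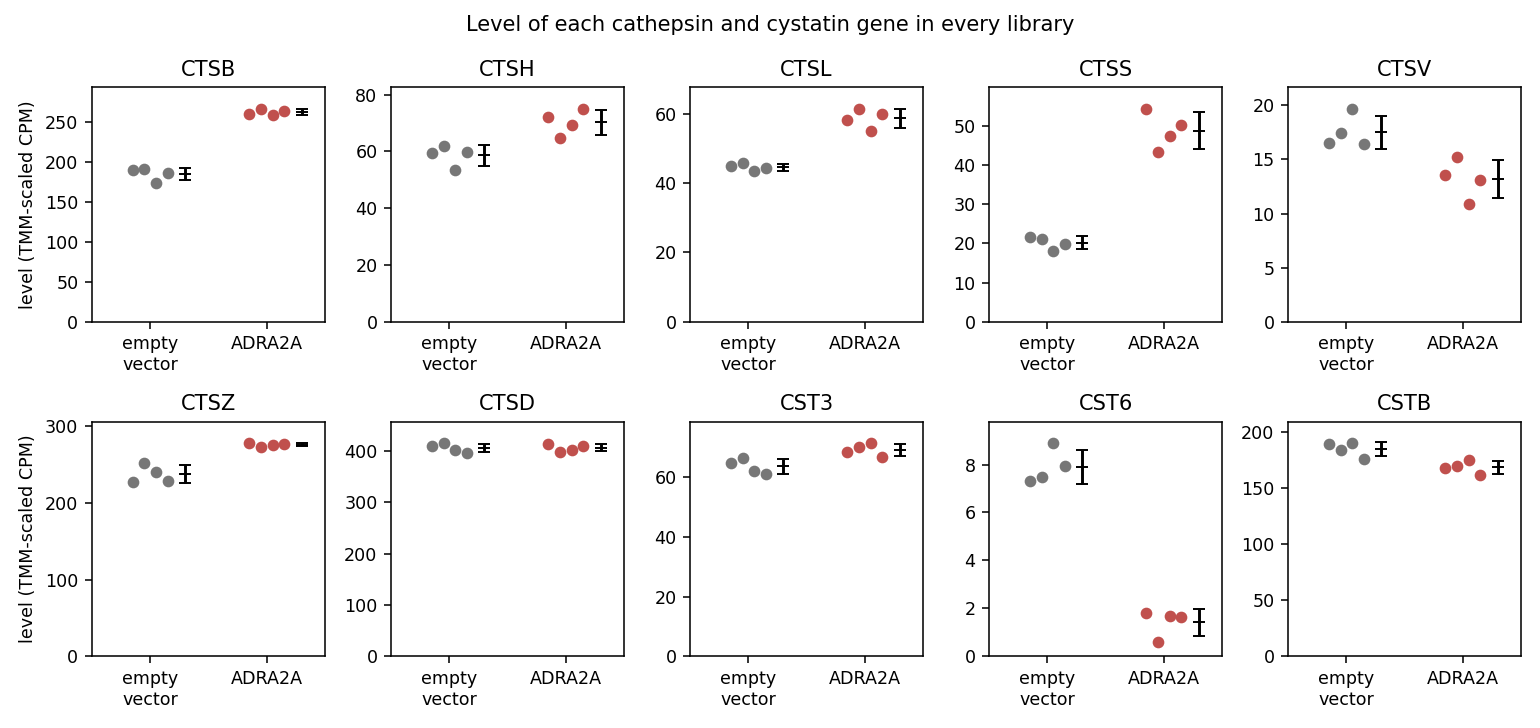
Level of each gene (vertical axis, TMM-scaled CPM, from 0) in the 4 empty-vector libraries (grey) and the 4 ADRA2A libraries (red), ordered by replicate number; the black bar is the mean ± SD. CTSS rises from about 20.3 to 48.9 CPM and CST6 falls from 7.90 to 1.42 CPM on average, while the points of CTSD lie at the same height in both groups.

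CTSS encodes cathepsin S, an endopeptidase that stays active at neutral pH and trims the invariant chain of MHC class II in antigen-presenting cells. Its gene (ENSG00000163131.11) occupies 150730079 to 150765957 of chromosome 1 (GRCh38, minus strand), with 8 exons in its MANE Select transcript. The level of CTSS was 21.7, 21.2, 18.2 and 19.9 CPM in empty-vector replicates 1 to 4, and 54.5, 43.3, 47.4 and 50.3 CPM in ADRA2A replicates 1 to 4. Every ADRA2A library lay far above every empty-vector library, and ADRA2A replicates 1 and 2 marked the ends of their group. CTSS rose, with 1.27 ± 0.07 as log2 fold change (SE, n = 4 each; edgeR adjusted p = 4.38e-11), 2.41-fold with a 95% interval of 2.17 to 2.68. CD74, which encodes the invariant chain and belongs to the list of processing and sorting genes, rose as well, from 636.3 ± 12.6 to 1031.9 ± 42.4 CPM (SD, n = 4 each; log2 fold change 0.70 ± 0.03, SE; edgeR adjusted p = 1.63e-12). Both genes are typical of leukocytes. Of the leukocyte and macrophage markers reported, CD163 and CD3E were at 0 and PTPRC and CSF1R had at most 4 counts, while CD14 had 1.56 ± 0.240 CPM without and 1.93 ± 0.315 CPM with the transgene (SD, n = 4 per group).

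CTSB encodes cathepsin B, which works as an endopeptidase and as a dipeptidyl carboxypeptidase and is often raised in carcinomas. The gene (ENSG00000164733.21) lies on chromosome 8, from 11842524 to 11869533 on the minus strand, with 10 exons. The level of CTSB was 189.3, 190.5, 173.3 and 185.9 CPM in the empty-vector libraries and 259.2, 266.3, 258.7 and 263.7 CPM in the ADRA2A libraries. The groups stood clearly apart, and the ADRA2A libraries differed among themselves by little (coefficient of variation 1.41%). CTSB rose, with 0.50 ± 0.04 as log2 fold change (SE; edgeR adjusted p = 1.10e-09), a gain of 41.8% with a 95% interval of 34.5% to 49.5%. CTSB and CTSZ together gave most of the counts of the 6 cysteine cathepsin genes.

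CTSL and CTSV encode cathepsins L and V, the closest pair of paralogs among the cysteine cathepsins, and they moved in opposite directions. Cathepsin L is a broadly expressed lysosomal endopeptidase, whereas cathepsin V is best known from thymus and testis. CTSL (ENSG00000135047.15; chromosome 9, 87724051 to 87731469, plus strand, 8 exons) had 44.9, 45.9, 43.5 and 44.3 CPM in the empty-vector libraries and 58.3, 61.6, 55.2 and 59.9 CPM in the ADRA2A libraries. The empty-vector libraries were tightly grouped and all lay below the lowest ADRA2A library. CTSL rose, with 0.39 ± 0.05 as log2 fold change (SE; edgeR adjusted p = 2.08e-06), a gain of 31.5% (95% interval 22.4% to 41.2%).

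CTSV (ENSG00000136943.11; chromosome 9, 97029677 to 97156556, minus strand, 8 exons) had 16.5, 17.4, 19.7 and 16.4 CPM in the empty-vector libraries and 13.6, 15.2, 10.9 and 13.1 CPM in the ADRA2A libraries. The groups did not overlap, although empty-vector replicate 4 and ADRA2A replicate 2 came close. CTSV fell, with -0.41 ± 0.10 as log2 fold change (SE; edgeR adjusted p = 0.00219) and a 95% interval of -0.62 to -0.20. Within each library the ratio of CTSL to CTSV was taken in CPM, which does not allow for their lengths. It was 2.57 ± 0.244 without and 4.49 ± 0.429 with the transgene (SD, n = 4 each). The lowest ADRA2A ratio of 4.06 lay above the highest empty-vector ratio of 2.72. The counts of both genes were whole numbers in all 8 libraries, so no decimal shows that reads were shared between them.

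The upstream sequences of the pair were compared because the paralogs moved apart. Of the 10 genes, 6 (CTSL, CTSV, CTSD, CTSH, CST3 and CTSZ) matched RefSeq's promoter table for GRCh38.p14, and the 250 bases before each start were used. Over all 15 pairs of these windows, the longest run of identical bases was 23, shared by CTSL and CTSV, and it occurred in 2 of the 35116 windows in the table. The 30 bases around that run are shown 5′ to 3′, with the CCAAT box in capitals:
CTSL: gctgccggcacagCCAATcgcagcgcagcc
CTSV: gtggccggcacagCCAATcgcagcgcggga
The CTSL stretch is chr9:87726020-87726049 on the plus strand and the CTSV stretch is chr9:97039202-97039231 on the minus strand. In GENCODE the CTSL stretch lies in the 5′ untranslated exons of 3 of 43 CTSL transcripts that start further upstream, and the CTSV stretch lies in no CTSV exon.

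In both promoters the CCAAT box sits between GC boxes. A GC box (GGGCGG, searched on both strands) began 20 bases before CCAAT in both genes, and another began 25 bases after it in CTSL and 26 bases after it in CTSV. CCAAT occurred in 32.0% and GGGCGG in 42.6% of all windows, searched in the same way, so neither motif is unusual by itself. The cyclic AMP response element TGACGTCA (1.65% of all windows) and the AP-1 motif TGANTCA (6.57%) were found in none of the 6 windows. These matches describe the sequence and are not measured binding sites.

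CTSH encodes cathepsin H, which acts mainly as an aminopeptidase. CTSH (ENSG00000103811.16; chromosome 15, 78921058 to 78949574, minus strand, 12 exons) had 59.4, 62.0, 53.3 and 59.8 CPM in the empty-vector libraries and 72.0, 64.7, 69.3 and 75.1 CPM in the ADRA2A libraries. The highest empty-vector library and the lowest ADRA2A library, both replicate 2 of their groups, were close to each other without overlap. The log2 fold change of CTSH was 0.26 ± 0.06 (SE; edgeR adjusted p = 0.000664), with a 95% interval of 0.15 to 0.38. Of the 27 tested genes within 2 Mb of CTSH, 22 were higher with the transgene, at a median of 0.11 (log2). The part of this stretch in the change of CTSH was not tested.

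CTSZ encodes cathepsin Z, also called cathepsin X, a carboxypeptidase that is secreted and binds integrins. CTSZ (ENSG00000101160.14; chromosome 20, 58985686 to 59008238, minus strand, 6 exons) had 227.9, 252.6, 240.6 and 229.1 CPM in the empty-vector libraries and 278.1, 273.1, 275.8 and 277.3 CPM in the ADRA2A libraries. The empty-vector libraries were spread out and all lay below the ADRA2A libraries, which were nearly identical. CTSZ rose, with 0.22 ± 0.04 as log2 fold change (SE; edgeR adjusted p = 7.53e-05), or 16.2% (95% interval 10.2% to 22.6%). Its gene overlaps NELFCD on the opposite strand, which fell from 98.1 ± 3.26 to 86.5 ± 4.70 CPM (SD, n = 4 each; log2 fold change -0.18 ± 0.05, SE; edgeR adjusted p = 0.00306). Whether counting used the strand is not given in the sources used here, so reads in the overlap could belong to either gene. The counts of CTSZ were whole numbers in all 8 libraries, so no decimal shows that its reads were shared with NELFCD.

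CTSD encodes cathepsin D, the main aspartic protease of lysosomes. CTSD (ENSG00000117984.14; chromosome 11, 1752752 to 1764573, minus strand, 9 exons) had 409.4, 415.5, 402.2 and 396.6 CPM in the empty-vector libraries and 413.6, 399.2, 403.0 and 410.3 CPM in the ADRA2A libraries. The libraries of the groups were interleaved. The log2 fold change of CTSD was 0.00 ± 0.03 (SE; edgeR adjusted p = 0.966), and the 95% interval of -4.25% to 4.73% holds no change as large as that of any cysteine cathepsin gene examined here. CTSD was the only one of the 10 genes whose estimated counts had decimals. A protein-coding gene on the same strand, AC068580.4 (ENSG00000250644 in GENCODE; chromosome 11, 1734821 to 1763954), overlaps CTSD, and its level went up from 7.06 ± 0.517 to 11.3 ± 0.684 CPM (SD, n = 4 per group; log2 fold change 0.68 ± 0.10, SE; edgeR adjusted p = 1.80e-05). With the counts of both genes summed, an alternative chosen after seeing the data, the sum had a log2 change of 0.02 ± 0.03 (SE; edgeR adjusted p = 0.694).

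The CTSD promoter was the one of the 6 windows that held the E-box CACGTG, the core of the element bound by TFEB, a transcription factor that drives lysosomal genes. The E-box occurred once, 47 bases before the start, against 6.34% of all windows with at least 1 copy on either strand. It is shown in capitals within chr11:1763957-1763986, read 5′ to 3′ on the minus strand:
CTSD: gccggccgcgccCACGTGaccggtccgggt
This stretch touches an exon of 1 of 16 CTSD transcripts in GENCODE and no annotated untranslated region of the gene. TFEB itself rose from low levels, with 3.45, 5.36, 3.66 and 2.81 CPM in the empty-vector libraries and 7.34, 6.80, 8.42 and 8.22 CPM in the ADRA2A libraries. The TFEB groups did not overlap, and TFEB had a log2 change of 1.02 ± 0.16 (SE; edgeR adjusted p = 4.87e-05) on 43 to 147 counts per library. Binding at this E-box was not measured, and the part of TFEB in the level of CTSD, which did not differ detectably, was not tested.

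**Figure D2:**
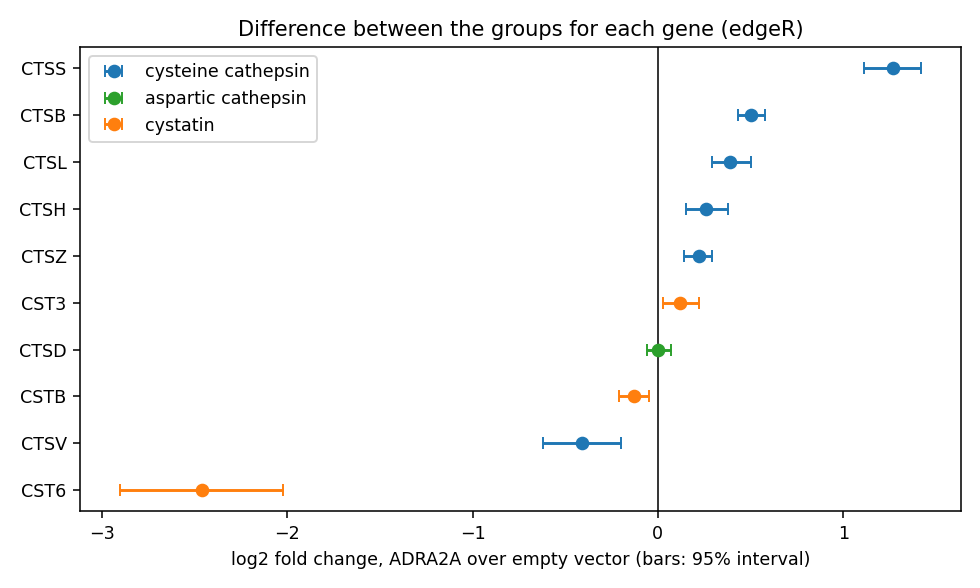
Log2 fold change of each gene (horizontal axis, ADRA2A over empty vector; edgeR, n = 4 each) with its 95% interval, coloured by class. CTSS lies at 1.27, CST6 at -2.46 and CTSD at 0.00, and 5 of the 6 cysteine cathepsins lie to the right of 0.

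CST6 encodes cystatin E/M, a secreted inhibitor of cathepsins V and L and of legumain that is silenced in several carcinomas. CST6 (ENSG00000175315.3; chromosome 11, 66012008 to 66013505, plus strand, 3 exons) had 7.32, 7.46, 8.89 and 7.92 CPM in the empty-vector libraries and 1.80, 0.594, 1.66 and 1.64 CPM in the ADRA2A libraries. All ADRA2A libraries were far below the empty-vector libraries, and replicate 2 was the lowest of them. These levels rest on 110 to 153 counts in the empty-vector libraries and on 26, 9, 29 and 26 counts in the ADRA2A libraries. The exact Poisson 95% interval of the lowest count was 4.12 to 17.1, against 90.4 to 133.0 for the lowest empty-vector count, and these intervals cover counting error only. CST6 fell, with -2.46 ± 0.21 as log2 fold change (SE; edgeR adjusted p = 1.20e-08) and a 95% interval of -2.90 to -2.02. Of the 132 tested genes within 2 Mb of it, 60 were higher and 72 lower, with a median log2 fold change of -0.03.

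CSTB encodes cystatin B, also called stefin B, the cytosolic inhibitor that guards against cathepsins leaking from lysosomes. CSTB (ENSG00000160213.7; chromosome 21, 43772511 to 43776330, minus strand, 3 exons) had 189.5, 183.3, 189.8 and 175.8 CPM in the empty-vector libraries and 168.0, 169.2, 174.8 and 161.1 CPM in the ADRA2A libraries. The lowest empty-vector library and the highest ADRA2A library nearly met. The decrease of CSTB was small, with -0.13 ± 0.04 as log2 fold change (SE; edgeR adjusted p = 0.00808) and a 95% interval of -13.8% to -3.65%.

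CST3 encodes cystatin C, the most abundant secreted cystatin in body fluids. CST3 (ENSG00000101439.9; chromosome 20, 23626706 to 23638473, minus strand, 3 exons) had 64.9, 66.5, 62.3 and 61.2 CPM in the empty-vector libraries and 68.4, 70.1, 71.5 and 67.0 CPM in the ADRA2A libraries. The groups touched without overlap. The log2 fold change of CST3 was 0.12 ± 0.05 (SE; edgeR adjusted p = 0.0373), a rise of 8.72% (95% interval 1.83% to 16.1%). This call did not hold in 9 of 16 alternative fits, 6 of which left out a single library, and the adjusted p over all of them ran from 0.0255 to 0.112. Its neighbours went the other way: 16 of 19 tested genes within 2 Mb were lower with the transgene, at a median of -0.24 (log2).

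The neighbouring genes were examined to see whether the stretch of chromosome around each gene moved with it. CTSZ, like CST3 on chromosome 20, rose while 13 of its 19 tested neighbours were lower (median -0.14). Of the 66 tested neighbours of CTSS on chromosome 1, 47 were higher, but their median log2 fold change was 0.09 against 1.27 for CTSS. Of 12 tested neighbours of CTSB, 4 were higher, with a median of -0.05, but within 1 Mb the median of 7 genes was 0.02. For CTSL, CTSV, CTSD, CST6 and CSTB the medians within 2 Mb lay between -0.03 and -0.01. Within 1 Mb the median was -0.12 over 20 genes for CSTB, near its own -0.13, and -0.17 over 3 genes for CTSL, which itself rose. It was -0.03 for CTSV and for CST6, and 0.04 for CTSD. The part of the stretch around CSTB in its change was not tested.

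**Figure D3:**
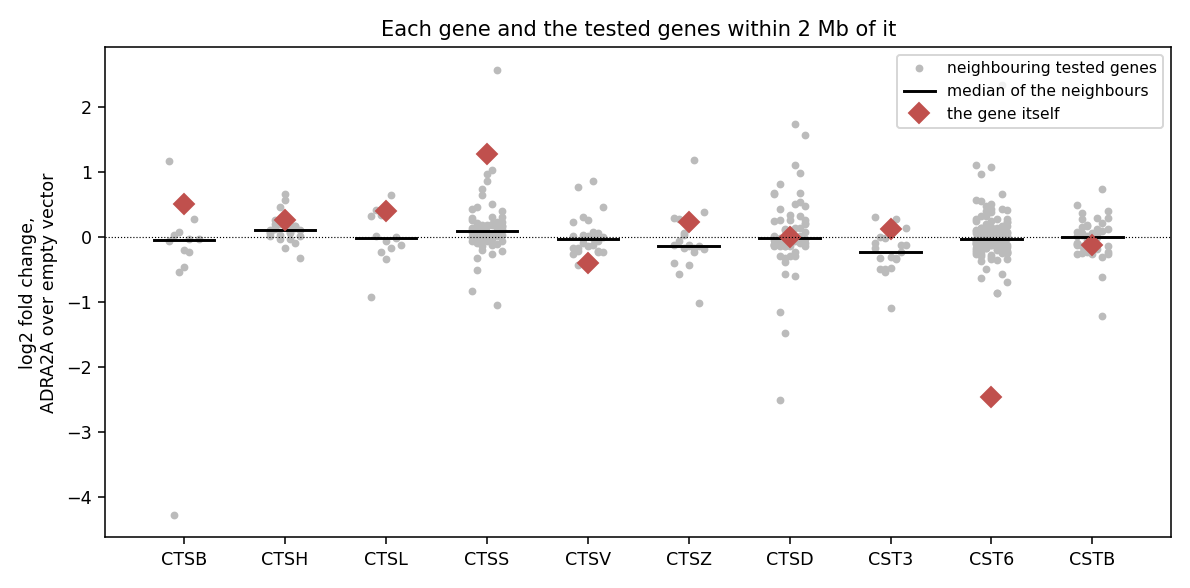
Log2 fold change (vertical axis, ADRA2A over empty vector) of each gene (red diamond), of the tested genes within 2 Mb of it (grey points) and the median of those neighbours (black line). CTSS at 1.27 and CST6 at -2.46 lie far from the medians of their neighbours, 0.09 and -0.03, whereas CTSH at 0.26 lies in a stretch with a median of 0.11.

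Summed over the 6 genes, cysteine cathepsin levels were higher in the ADRA2A cells and the mean cystatin sum was slightly lower. The cathepsin sum is not a total, since it leaves out other cysteine cathepsin genes such as CTSC, CTSO, CTSF and CTSK. CTSC fell from 150.0 ± 2.97 to 119.1 ± 3.16 CPM (SD, n = 4 per group), while CTSO rose (log2 fold change 0.60 ± 0.07, SE). CTSF and CTSK were not called, and a sum that includes these genes was not computed. The cathepsin sum was 563.3 ± 18.1 CPM without and 729.1 ± 10.3 CPM with the transgene (SD, n = 4 per group), 1.29 times as much. The sum of the 3 cystatins was 256.2 ± 7.80 CPM against 239.0 ± 7.47 CPM, and here the groups overlapped, since ADRA2A replicate 3 at 247.9 CPM exceeded empty-vector replicate 4 at 244.9 CPM. The ratio of the sums was 2.14, 2.29, 2.10 and 2.27 in the empty-vector libraries and 3.09, 3.02, 2.89 and 3.22 in the ADRA2A libraries. All ratios of the ADRA2A cells were higher, and no test was made of these sums, whose members were chosen with results known. The sums count reads and not molecules, since the genes differ in length, so the ratio does not say which class had more molecules.

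Shares in the cathepsin sum were computed for CTSS, CTSZ and CTSB. CTSS held 3.60% ± 0.227 of the summed CPM of these 6 genes without and 6.70% ± 0.591 with the transgene (SD, n = 4 per group). The share of CTSZ went from 42.2% ± 1.45 to 37.9% ± 0.410, although its own level rose. CTSB held 32.8% ± 1.04 and 35.9% ± 0.660 of the reads in the respective groups.

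**Figure D4:**
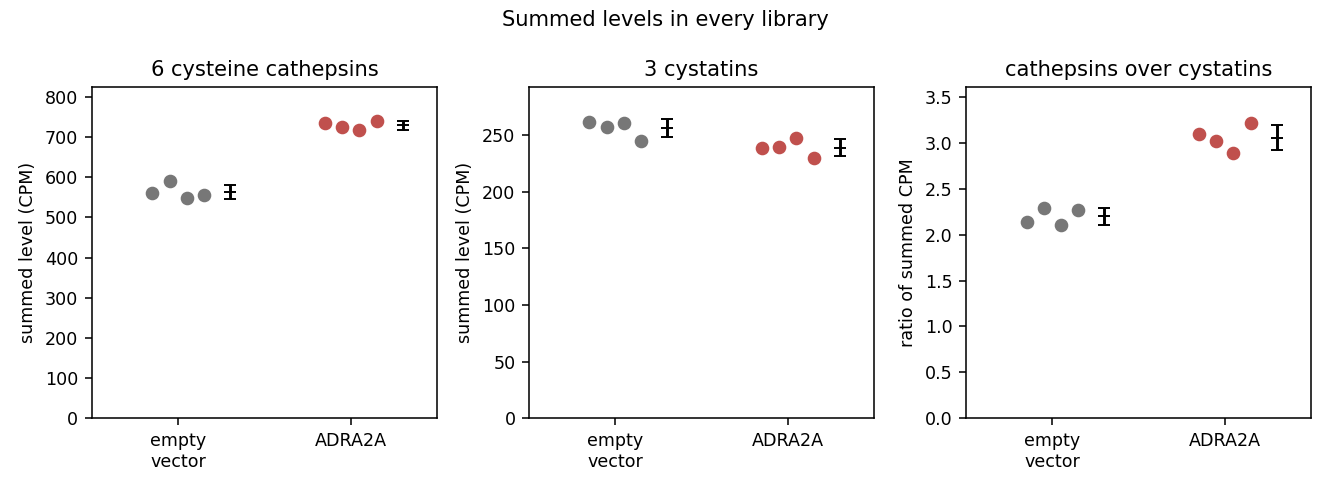
Summed level of the 6 cysteine cathepsin genes and of the 3 cystatin genes (CPM, from 0), and the ratio of the sums, in every library, with mean ± SD in black. The ratios lie between 2.10 and 2.29 in the empty-vector libraries and between 2.89 and 3.22 in the ADRA2A libraries. They are ratios of reads and do not allow for gene length.

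Levels were compared between genes as CPM per kilobase, and the order depended on the gene length used. Per kilobase of the union of GENCODE exons, the empty-vector cells had 71.3 ± 1.45 for CTSD and 48.3 ± 1.73 for CSTB, the highest of the 10 genes. Then followed CST3 (17.6 ± 0.672) and CTSB (17.5 ± 0.749), which did not differ beyond their spread, and likewise CST6 (13.3 ± 1.20) and CTSZ (12.3 ± 0.598). CTSL had 7.30 ± 0.171, CTSH 4.26 ± 0.271, CTSS 2.94 ± 0.227 and CTSV 2.39 ± 0.210. In the ADRA2A cells CTSS reached 7.10 ± 0.690 (CPM per kilobase, SD, n = 4 each). The union of exons was between 1.00 and 12.9 times as long as the MANE Select transcript, most of all for CTSZ. Per kilobase of the MANE Select transcript, a length chosen after seeing the data, the order began with CSTB (314.0 ± 11.2), CTSD (197.5 ± 4.02) and CTSZ (158.2 ± 7.72). In the empty-vector cells CTSV was the lowest of the 10 genes and CTSS the next lowest with each of these lengths. In the ADRA2A cells the lowest were CTSV (1.80 ± 0.239) and CST6 (2.41 ± 0.943) per kilobase of exon union, and CST6 (2.41 ± 0.943) and CTSV (3.03 ± 0.402) per kilobase of MANE Select transcript, within their spread of each other.

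Other genes of the lysosomal protease pathway were read from 7 lists, and most called members were higher in the ADRA2A cells. The lists were written with earlier results of these data known, and each count stands against 42.7% of all tested genes called (21.6% higher and 21.1% lower) and a median log2 fold change of 0.00.

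Of 8 other cathepsin genes, 6 were tested, 2 were higher and 1 lower, with a median log2 fold change of -0.03. CTSO, a little-studied cysteine cathepsin gene, had 26.9, 24.3, 20.9 and 27.8 CPM in the empty-vector libraries and 39.0, 37.5, 37.6 and 37.6 CPM in the ADRA2A libraries, and it rose (log2 fold change 0.60 ± 0.07, SE; edgeR adjusted p = 1.56e-06). CTSA, which encodes the serine carboxypeptidase that protects lysosomal galactosidase, rose by a log2 fold change of 0.16 ± 0.04. CTSC, also a cysteine cathepsin gene, encodes the dipeptidyl peptidase that activates granule serine proteases. CTSC fell from 150.0 ± 2.97 to 119.1 ± 3.16 CPM (SD, n = 4 per group; log2 fold change -0.33 ± 0.04, SE; edgeR adjusted p = 4.88e-07). CTSG, a neutrophil gene, was at 0 in every library.

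Few other inhibitors of the cystatin superfamily were expressed. Of 15 such genes only CST1 and CST2 were tested, and edgeR called 0 of them, with 0 at an unadjusted p under 0.05 and 0 with DESeq2. CST1 had 3.46 ± 0.580 and 3.82 ± 0.354 CPM in the empty-vector and ADRA2A cells (SD, n = 4 each). CSTA, which encodes the epidermal cystatin A, had at most 3 counts in a library.

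Of 6 genes for serpins and macroglobulin that inhibit cathepsins, 4 were tested and all 4 were higher, with a median log2 fold change of 0.81. SERPINB3, whose product inhibits cathepsins L, K and S, had 4.62 ± 0.472 CPM without and 9.04 ± 1.19 CPM with the transgene (SD, n = 4 per group). SERPINB4, a near-identical neighbour whose reads may be shared with it, had 1.29 ± 0.179 and 3.27 ± 0.240 CPM. SERPINA3 and SERPINB1, which act on cathepsin G, had log2 fold changes of 0.66 ± 0.16 and 0.11 ± 0.04 (SE), and the libraries of the groups overlapped for both. The number of called genes in this list was 3 instead of 4 in 7 of 13 alternative fits, 5 of which left out a single library.

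All 14 genes of cathepsin processing and sorting were tested, of which 7 were higher and 2 lower, with a median log2 fold change of 0.13. Besides CD74, SCARB2, a lysosomal membrane protein and sorting receptor, rose from 268.7 ± 11.6 to 342.2 ± 10.9 CPM (SD, n = 4 each; log2 fold change 0.35 ± 0.04, SE). GNPTG, a subunit of the enzyme that makes the mannose 6-phosphate tag, had a log2 fold change of 0.42 ± 0.06, and PSAP, the precursor of the saposins, had 0.25 ± 0.03 (edgeR adjusted p = 8.59e-06 and 1.95e-06). LGMN, which encodes legumain, a protease that processes cathepsins and is inhibited by cystatins C and E/M, fell. It had 94.7, 101.5, 95.6 and 98.1 CPM in the empty-vector libraries and 84.5, 91.3, 86.9 and 80.6 CPM in the ADRA2A libraries (log2 fold change -0.18 ± 0.04, SE; edgeR adjusted p = 0.00259). The other lower gene was GGA3, an adaptor for mannose 6-phosphate receptors, named after its value was seen (log2 fold change -0.23 ± 0.06, SE).

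Of 5 transcription factor genes of lysosomal biogenesis, 4 were tested and TFEB alone passed. TFE3 lay between 51.6 and 54.8 CPM in the empty-vector libraries and between 49.5 and 56.8 CPM in the ADRA2A libraries. MITF lay between 36.8 and 40.7 CPM and between 37.0 and 41.9 CPM, respectively. Their log2 fold changes were 0.01 ± 0.05 and 0.04 ± 0.06 (SE), within the spread of the libraries.

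All 28 lysosomal hydrolase genes outside the cathepsins were tested, of which 15 were higher and 2 lower, with a median log2 fold change of 0.16. GAA, the acid alpha-glucosidase gene, had 15.3, 19.2, 15.5 and 15.8 CPM in the empty-vector libraries and 34.7, 35.2, 35.5 and 37.1 CPM in the ADRA2A libraries, and it rose, with 1.12 ± 0.07 as log2 fold change (SE; edgeR adjusted p = 2.28e-10). FUCA1 (alpha-fucosidase), SMPD1 (acid sphingomyelinase) and IDUA (alpha-iduronidase) rose by 0.68 ± 0.04, 0.67 ± 0.08 and 0.52 ± 0.12 (log2, SE). The lower genes, named after their values were seen, were IDS (iduronate sulfatase; -0.49 ± 0.03) and GLA (alpha-galactosidase; -0.21 ± 0.07).

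All 25 genes of the lysosomal membrane and its acidification were tested, of which 9 were higher and 3 lower, with a median log2 fold change of 0.09. ATP6V0A1, a subunit of the proton pump, rose from 78.5 ± 3.96 to 125.6 ± 6.32 CPM (SD, n = 4 each; log2 fold change 0.68 ± 0.05, SE; edgeR adjusted p = 5.79e-10). LAPTM4A, ATP6AP2 and ATP6V0E1 had log2 fold changes of 0.41 ± 0.04, 0.41 ± 0.05 and 0.35 ± 0.04 (SE). Genes of abundant membrane proteins, named after their values were seen, differed in what they showed. CD63 rose from 403.9 ± 18.6 to 448.8 ± 12.6 CPM (SD, n = 4 per group; log2 fold change 0.15 ± 0.04, SE; edgeR adjusted p = 0.00195). LAMP1 and LAMP2 did not pass, at -0.07 ± 0.04 and -0.09 ± 0.04 (log2, SE; edgeR adjusted p = 0.149 and 0.0619).

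**Figure D5:**
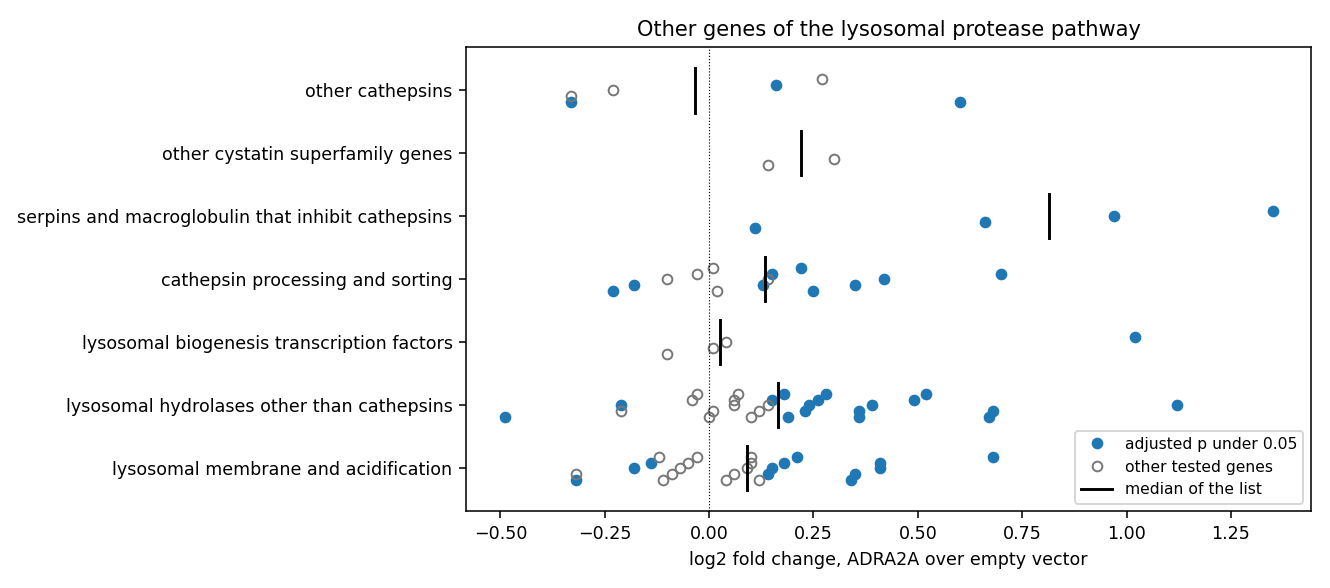
Log2 fold change (horizontal axis, ADRA2A over empty vector) of every tested gene of the 7 lists; filled points had an edgeR adjusted p-value under 0.05 and the black line is the list's median. The hydrolase list has 15 called genes to the right of 0 and 2 to the left, and the point at 1.02 in the transcription factor list is TFEB.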

How the data were processed

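The authors deposited a table of RSEM estimated counts per gene for 8 libraries. Per the submitters' processing notes, cutadapt, STAR, RSEM and DESeq2 were used with the hg38 build; versions, annotation and use of strand are not given in the sources used here. RSEM divides reads that fit several genes, so between 4.61% and 4.90% of entries had decimals, and estimated counts were rounded.

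Groups came from sample titles. Of 58870 genes, 14785 passed edgeR's filterByExpr, library sizes were scaled by TMM (factors 0.9938 to 1.006), and edgeR 4.0.16 (quasi-likelihood test, two-sided, group as the only term) gave Benjamini-Hochberg adjusted p-values over all tested genes. Standard errors are the absolute log2 fold change divided by the square root of F, and 95% intervals use the fit's t distribution. Replicate pairs differed by more than counting noise (chi-square per degree of freedom 2.12 to 4.59), and the biological coefficient of variation was 4.96%. The fit was tested on simulated data. Positions and lengths are from GENCODE 44, promoters from RefSeq GRCh38.p14.

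All 10 genes and ADRA2A were named; of each list, up to 4 called genes with the largest absolute log2 fold change, and LGMN, TFEB, TFE3 and MITF. The members and lists were chosen with earlier results of these data known. Alternatives were DESeq2 1.42.0, limma 3.58.1 voom, other scaling and filters, unrounded counts, a block for replicate number, and 8 fits that each omitted 1 library. A marker of the leukocyte list, and the list's sum, are not reported here.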

Additional observations from a re-analysis of the deposited data

Results flagged for a closer look

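In 4 of 66 groups of 4 libraries checked, for the 10 genes and the named pathway genes, a single library stood apart from the other 3 beyond Dixon's 95% critical value; chance flags about 1 in 20 such groups. CST6 was at 0.594 CPM in ADRA2A replicate 2, while the other ADRA2A libraries lay between 1.64 and 1.80 CPM. CTSC was at 114.4 CPM in ADRA2A replicate 4 and between 120.1 and 121.0 CPM in the others. CTSO was at 39.0 CPM in ADRA2A replicate 1 and between 37.5 and 37.6 CPM in the others. GAA was at 19.2 CPM in empty-vector replicate 2 and between 15.3 and 15.8 CPM in the others. Without ADRA2A replicate 2, the log2 fold change of CST6 was -2.21.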

How the results depend on the processing

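Over 16 alternative fits (DESeq2, limma voom, RLE factors, upper quartile factors, no filter, a filter at a mean of 50 counts, unrounded counts, the replicate block, and 8 that each omitted 1 library), CTSB, CTSH, CTSL, CTSS, CTSV, CTSZ, CST6 and CSTB kept their direction and their adjusted p-value under 0.05. CST3 was no longer called with DESeq2 (log2 fold change 0.12, adjusted p = 0.0631), with upper quartile factors (0.10, adjusted p = 0.0778) or with no filter (0.12, adjusted p = 0.0689). Leaving out single libraries gave CST3 0.10 to 0.14, with the call lost without empty-vector replicates 1, 3 or 4 or ADRA2A replicates 1, 2 or 3. For CTSD, which was not called in any fit, the value was -0.02 with upper quartile factors and -0.01 to 0.01 without single libraries. CST6 ran from -2.58 to -2.21 when single libraries were left out. Between 8 and 9 of the 10 genes were called in every alternative. Over all genes 6314 were called, with 5703 to 6042 when single libraries were left out and 5823 with DESeq2. The labels share only replicate numbers between groups, and deviations of same-numbered libraries were correlated at -0.0421 to 0.0701. These values show no pairing by number over all genes, but they cannot exclude a shared culture or day. With the replicate block 6400 genes and 9 of the 10 members were called. The share of higher neighbours within 1, 2 and 5 Mb was 72.2%, 81.5% and 61.2% for CTSH, 33.3%, 15.8% and 21.4% for CST3, and 57.1%, 33.3% and 40.9% for CTSB. The median of the neighbours turned from -0.05 within 2 Mb to 0.02 within 1 Mb for CTSB and from -0.02 to 0.04 for CTSD. It went from -0.01 to -0.12 for CSTB and from -0.02 to -0.17 for CTSL. Serpin calls were 3 with upper quartile factors, with no filter, and without empty-vector replicates 3 or 4 or ADRA2A replicates 1, 2 or 3. Depth limits CST6 most, with 9 to 29 counts in the ADRA2A libraries.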
